A study of Mus musculus with 28 samples.

Results

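The mouse small nucleolar RNA (snoRNA) genes described here are the rows of a ventricular RNA-seq count table whose gene name begins with Snora or Snord and that reached 10 counts in at least 14 of the 28 libraries. Of 63 such rows among the 45513 rows of the table, 10 met this threshold. They were 5 C/D box genes (Snord17, Snord104, Snord15a, Snord8 and Snord71) and 5 H/ACA box genes (Snora23, Snora17, Snora30, Snora31 and Snora47). The lowest of those that met it was Snord71, with 10 counts in 14 libraries, followed by Snord8 and Snora47 with 18 each. Just below it were Snora78, with 10 counts in 12 libraries, and Snord98 and Snora57, with 11 each. Of the 53 rows below the threshold, 39 were C/D and 14 were H/ACA, and 23 and 6 of these reached 10 counts in no library.

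The libraries came from ventricular myocardium of adult male C57BL/6 mice, 1 library per mouse. All mice ate a diet with 1% hydroxyproline, a precursor of oxalate, and 0.5% calcium. At 6 weeks of age they had either sham surgery or a staged 5/6 nephrectomy, which leaves a remnant of kidney tissue and models chronic kidney disease (CKD). On day 7 they were gavaged once with Oxalobacter formigenes (Oxf), a gut bacterium that degrades oxalate, or with culture medium as vehicle. The groups held 10 sham-vehicle, 6 CKD-vehicle, 5 sham-Oxf and 7 CKD-Oxf libraries. A sham-vehicle mouse therefore also received the oxalate-precursor diet and a gavage of medium. The series title concerns colonization and cardiac remodeling in CKD.

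snoRNAs are short nuclear RNAs that mostly lie in introns of other genes and are released when the host transcript is spliced and trimmed. C/D box snoRNAs guide methylation of the ribose in ribosomal and spliceosomal RNA through the enzyme fibrillarin, and H/ACA box snoRNAs guide the conversion of uridine to pseudouridine through dyskerin. The RNA 7SL, the scaffold of the signal recognition particle that brings nascent secreted proteins to the endoplasmic reticulum, is made by another polymerase, is abundant and folded, and belongs to neither class.

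The sequences below are from GENCODE M21 transcripts (GRCm38) and are shown for the 3 members whose level rose with the 7SL share (Snord17, Snord15a, Snora23), for Snord104, which was lower with Oxf but did not pass the test against the 7SL share, and for Snora31, an H/ACA member that passed neither. They are written as DNA, 5′ to 3′. Capitals mark the C box (TGATGA) and the D box (CTGA) of a C/D gene, or the ACA box of an H/ACA gene.
Snord17: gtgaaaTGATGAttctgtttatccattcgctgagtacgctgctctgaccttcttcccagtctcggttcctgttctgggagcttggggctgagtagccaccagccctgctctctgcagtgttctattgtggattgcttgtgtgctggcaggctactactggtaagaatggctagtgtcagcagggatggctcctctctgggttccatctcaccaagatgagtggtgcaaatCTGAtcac
Snord15a: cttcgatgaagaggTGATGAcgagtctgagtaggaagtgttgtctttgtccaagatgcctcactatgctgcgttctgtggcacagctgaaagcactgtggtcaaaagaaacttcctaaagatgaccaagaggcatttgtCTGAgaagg
Snord104: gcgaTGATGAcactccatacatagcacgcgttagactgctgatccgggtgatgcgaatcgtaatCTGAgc
Snora23: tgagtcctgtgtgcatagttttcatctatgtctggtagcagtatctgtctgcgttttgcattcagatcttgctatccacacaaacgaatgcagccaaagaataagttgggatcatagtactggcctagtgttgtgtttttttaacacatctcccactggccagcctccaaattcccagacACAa
Snora31: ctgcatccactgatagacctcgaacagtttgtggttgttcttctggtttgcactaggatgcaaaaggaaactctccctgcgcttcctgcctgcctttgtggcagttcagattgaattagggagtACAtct

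A C box TGATGA beginning in the first 40 bases was found in 4 of the 5 C/D members, the exception being Snord71, and a D box CTGA in the last 20 bases in 5 of 5. ACA in the last 10 bases was found in 5 of 5 H/ACA members. Only the transcribed strand was searched, and a match is a description of these letters. Among the 98 annotated Snord genes the C box was found in 73.5% and the D box in 98.0%, and ACA was found in 95.2% of the 42 annotated Snora genes. Over all 1507 annotated snoRNA genes the shares were 22.8%, 35.4% and 47.4%.

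Snord17 (ENSMUSG00000077714, chr2:144265979-144266216, minus strand, 238 bases) lay in an intron of the sorting nexin gene Snx5. Snord15a (ENSMUSG00000065822, chr7:99482785-99482932, minus strand, 148 bases) lay in an intron of the ribosomal protein gene Rps3. Snord104 (ENSMUSG00000065126, chr11:106500993-106501062, plus strand, 70 bases) had no GENCODE gene around it on its strand. Snord8 (ENSMUSG00000093044, chr14:52209785-52209894, minus strand, 110 bases) lay in an intron of the chromatin remodeller gene Chd8, and Snord71 (ENSMUSG00000077549, chr8:109839295-109839379, plus strand, 85 bases) in one of the adaptor protein gene Ap1g1. Among the H/ACA genes, Snora23 (ENSMUSG00000064451, chr7:110046364-110046547, plus strand, 184 bases) lay in an intron of the nuclear import gene Ipo7, and Snora31 (ENSMUSG00000065147, chr14:75847905-75848034, plus strand, 130 bases) in one of Tpt1, a gene of an abundant growth-linked protein. Snora30 (ENSMUSG00000065259, chr7:127527874-127528003, plus strand, 130 bases) lay in an intron of the chromatin remodeller gene Srcap, and Snora47 (ENSMUSG00000088108, chr13:95330600-95330737, plus strand, 138 bases) in one of Zbed3. Snora17 (ENSMUSG00000077192, chr2:26639190-26639321, minus strand, 132 bases) had no GENCODE gene around it and fell in the RefSeq span of the non-coding host gene Snhg7.

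None of the 10 members overlapped an annotated exon of another gene. Among the rows below the threshold 4 C/D and 7 H/ACA genes did. For Snora34, Snora19 and Snora36b, which are among those 7, the exon was not one of the host gene. Snora73a overlapped exons of Snhg3, which spans it on the same strand, and of Gm17300 on the other strand. Snora30 has a copy of 98.5% identity, Gm25133, and Snora17 has copies of up to 94.4% identity, so the counts of these 2 genes are uncertain. Snord8 and Snora23 also lie opposite a gene on the other strand (Gm26590 and 1600010M07Rik). Whether the counting used strand is not given in the sources used here, so reads from the opposite strand could not be separated.

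Library totals ranged from 19798965 to 65378162 counts. Sham-Oxf replicate 1 stood apart with the lowest total and 15879 detected genes, against 27128 to 33995 in the other libraries. In that library 7 of the 10 members had 0 counts, which allows up to 3 counts or 0.142 CPM (counts per 1e6 counts at the scaled library size), and only Snord17 (108 counts), Snora23 (113) and Snora17 (38) were detected. The 1 other zero was Snora23 in sham-Oxf replicate 4. The 7SL share of all counts, summed over Rn7s1, Rn7s2 and Rn7s6, ran from 2.12% to 23.6%. Rn7s1 and Rn7s2 differed by at most 115 counts in any library, and whether the same reads were counted in both was not tested. The 7 ventricular cardiomyocyte markers summed to between 16887 and 44229 CPM in every library. In whole tissue, fewer cells of a type and less RNA per cell cannot be told apart.

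Snord17, which guides methylation of the large-subunit ribosomal RNA, held 67.0% of all counts of the 10 members. Its mean level over the 28 libraries was 11.3 ± 10.4 CPM (SD), which is 47.3 ± 43.6 CPM per kilobase of annotated length. Next by level per kilobase were Snord104 at 16.7 ± 9.31, Snora23 at 6.75 ± 6.61 and Snora17 at 4.51 ± 2.29. Snord15a and Snora23, like Snord17, guide modification of large-subunit ribosomal RNA. Snord15a had 4.35 ± 3.82 CPM per kilobase, followed by Snora30 at 3.84 ± 1.24, Snora31 at 3.79 ± 1.53, Snord71 at 2.997 ± 1.46, Snord8 at 2.65 ± 1.44 and Snora47 at 2.40 ± 1.12. From Snora23 downward, each step between neighbours in this order was smaller than their SD. The spread over libraries was itself unlike among members. Snord17 ran from 1.30 to 35.6 CPM, while Snora30 ran from 0.258 to 0.874 CPM in the libraries where it was detected.

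The summed C/D level differed more between groups than the summed H/ACA level. Among vehicle mice it was 16.6 ± 10.9 CPM after sham surgery (SD, n = 10) and 21.2 ± 13.3 in CKD (n = 6). Among Oxf mice it was 3.45 ± 1.09 CPM after sham surgery (n = 5) and 10.1 ± 9.09 in CKD (n = 7). The H/ACA sum was 3.38 ± 1.13, 3.53 ± 1.19, 3.18 ± 2.26 and 2.52 ± 0.902 CPM in the same order, and without sham-Oxf replicate 1 the sham-Oxf value was 2.19 ± 0.479. The ratio of H/ACA to C/D sums was 0.264 ± 0.125 and 0.220 ± 0.118 in the sham and CKD mice given vehicle. With Oxf it was 0.876 ± 0.354 in sham mice (0.745 ± 0.232 without replicate 1) and 0.348 ± 0.190 in CKD mice. Sham-Oxf replicates 1 and 5 were the libraries in which H/ACA counts exceeded C/D counts, with ratios of 1.40 and 1.02. Averaged over surgery, the Oxf groups differed from the vehicle groups by -1.56 in log2 C/D sum, where libraries of 1 group differed by an SD of 0.98. For the H/ACA sum the difference was -0.36 against an SD of 0.55. The class sums are given as a description with no test, and the C/D sum is mostly Snord17. Without the 2 most abundant C/D members, the remaining 3 summed to 1.27 (sham) and 1.79 CPM (CKD) on average with vehicle. With Oxf they summed to 0.670 (0.838 without replicate 1) and 0.937 CPM. The remaining 3 H/ACA members, chosen likewise, summed to 1.41 and 1.45 CPM with vehicle. With Oxf they summed to 1.12 (1.41 without replicate 1) and 1.23 CPM.

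The 7SL share was in the same order of groups as the C/D sum. Its mean was 15.3 ± 7.67% in CKD-vehicle, 11.01 ± 5.87% in sham-vehicle, 9.85 ± 6.93% in CKD-Oxf and 4.67 ± 3.95% in sham-Oxf, or 2.93 ± 0.853% without sham-Oxf replicate 1. Within each group the library with the least C/D RNA had a lower share than the one with the most. The sham-vehicle library with the least C/D RNA, replicate 6, had 3.95 CPM at a 7SL share of 2.61%, and the one with the most, replicate 3, had 39.1 CPM at 16.6%. In CKD-vehicle the corresponding libraries had 4.44 CPM at 2.58% and 38.9 CPM at 23.6%, and in CKD-Oxf 3.51 CPM at 2.24% and 29.8 CPM at 23.0%. In sham-Oxf they were replicate 5, with 2.499 CPM at 4.08%, and replicate 1, with 5.12 CPM at 11.6%. Without replicate 1 the order in sham-Oxf was the reverse. Replicates 2 to 5 had shares of 2.12%, 2.48%, 3.05% and 4.08% beside C/D sums of 3.92, 3.01, 2.68 and 2.499 CPM. The H/ACA sums in the other 3 groups stayed within 1.72 to 5.79 CPM.

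With Oxf averaged over surgery, 3 of the 10 members were lower and none was higher at an adjusted p under 0.05, and the 3 were all C/D genes: 3 of 5 C/D and 0 of 5 H/ACA. Over all 24273 genes tested, 2.81% passed in either direction, 1.54% lower and 1.26% higher. The threshold of 14 libraries can be met by vehicle libraries alone (10 and 6) but not by Oxf libraries alone (5 and 7). Membership therefore favours rows that are lower with Oxf, whereas all genes tested were filtered by group. How far this entered the counts was not tested. The median log2 difference was -1.12 over the C/D members and -0.19 over the H/ACA members, beside 0.00312 over all genes. Whether the classes differed from each other was not tested.

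Snord17 in sham-vehicle ran from 2.604 through a median of 10.8 to 35.6 CPM (114 to 1173 counts), and in CKD-vehicle from 3.27 through 15.6 to 34.9 CPM. In sham-Oxf replicates 1 to 5 it was at 5.12, 2.30, 1.58, 1.41 and 1.30 CPM (50 to 108 counts), and in CKD-Oxf it ran from 1.89 through 5.04 to 25.8 CPM. Each of the 5 sham-Oxf values was under the median of sham-vehicle, 4 of them below its lowest library, and 6 of 7 CKD-Oxf libraries lay below the CKD-vehicle median, so the groups overlapped. The log2 difference was -1.87 ± 0.43 (SE; 3.64-fold lower), with an edgeR adjusted p of 0.0295.

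Snord15a in sham-vehicle ran from 0.183 through 0.811 to 1.29 CPM (7 to 50 counts), and in CKD-vehicle from 0.263 through 0.996 to 2.11 CPM. In sham-Oxf replicates 1 to 5 it was at 0, 0.270, 0.0597, 0.108 and 0.234 CPM (0 to 12 counts), and in CKD-Oxf it ran from 0.187 through 0.354 to 1.36 CPM. Again 5 of 5 sham-Oxf and 6 of 7 CKD-Oxf libraries lay below the median of their vehicle group, and the ranges overlapped. The log2 difference was -1.81 ± 0.42 (SE; 3.51-fold lower; edgeR adjusted p 0.0288).

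Snord104, the shortest member, also guides methylation of large-subunit ribosomal RNA. In sham-vehicle it ran from 0.594 through 1.42 to 2.34 CPM (16 to 88 counts), and in CKD-vehicle from 0.692 through 1.40 to 2.62 CPM. In sham-Oxf replicates 1 to 5 it was at 0, 0.405, 0.836, 0.486 and 0.442 CPM (0 to 28 counts), and in CKD-Oxf it ran from 0.788 through 0.917 to 1.86 CPM. The counts below the vehicle medians were the same as for Snord17, and the ranges overlapped. The log2 difference was -1.12 ± 0.30 (SE; 2.18-fold lower; edgeR adjusted p 0.0444). For these 3 genes the 1 CKD-Oxf library above the CKD-vehicle median was replicate 4, which had the highest 7SL share of its group (23.0%).

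**Figure D1:**
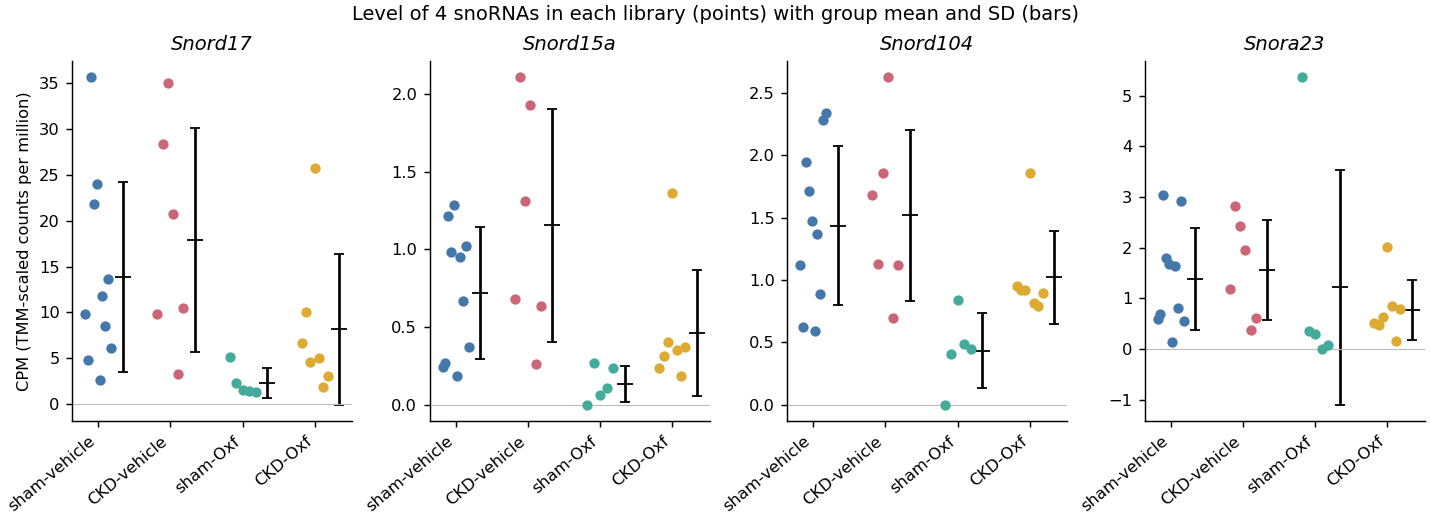
Level of Snord17, Snord15a, Snord104 and Snora23 in each library, in CPM on a linear axis for each gene, by group. Points are libraries, and the bar beside each group is its mean with the SD. The C/D genes are low in sham-Oxf (Snord17 at most 5.12 CPM), and Snora23 reaches its highest value, 5.36 CPM, in sham-Oxf replicate 1.

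The other C/D members, Snord8 and Snord71, had log2 differences of -0.21 ± 0.37 and -0.21 ± 0.32 (SE; edgeR adjusted p 0.794 and 0.753). Snord8 is known as a guide for methylation of the spliceosomal U6 RNA and had 1 to 22 counts in the libraries where it was detected. Among the H/ACA members, Snora47 had the smallest p, with a log2 difference of -0.69 ± 0.30 (edgeR adjusted p 0.171). Snora30 had -0.19 ± 0.26, Snora31 -0.07 ± 0.30 and Snora17 0.23 ± 0.26, and none of the 3 passed (edgeR adjusted p 0.648 to 0.924). Snora17 had 6 to 38 counts and was the only member with a positive difference, which was -0.00438 without sham-Oxf replicate 1.

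Snora23 was the member whose value turned on 1 library. In sham-Oxf replicates 1 to 5 it was at 5.36, 0.360, 0.298, 0 and 0.0781 CPM, so replicate 1 was above every library of every group and the others were at 16 counts or fewer. It ran from 0.137 through 1.22 to 3.03 CPM in sham-vehicle, from 0.382 through 1.57 to 2.82 in CKD-vehicle and from 0.166 through 0.634 to 2.01 in CKD-Oxf. Its log2 difference with Oxf was -0.63 ± 0.55 (edgeR adjusted p 0.535) with all libraries and -1.94 ± 0.49 (edgeR adjusted p 0.0348) without sham-Oxf replicate 1. In that fit 4 members were lower, Snord17 (-2.10 ± 0.46), Snord15a (-1.69 ± 0.41), Snord104 (-0.99 ± 0.25) and Snora23, where 3.5% of the genes tested passed.

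The 3 calls moved with the 7SL share and with single libraries. With the log2 7SL share as a covariate 0 of 10 members passed, where 0.593% of all genes did, and Snord17 had -0.77 ± 0.21 (edgeR p 0.00118, adjusted p 0.0920), Snord15a -0.87 ± 0.38 (adjusted p 0.248) and Snord104 -0.80 ± 0.34 (adjusted p 0.229). The difference was thus smaller in size by more than 1.5 times for Snord17 and Snord15a. A clock score, the mean log2 CPM of 10 genes led by Dbp and Per1 minus that of 5 genes led by Arntl and Npas2, also differed between groups, with means of 2.27 (sham) and 0.828 (CKD) under vehicle and 3.86 and 3.27 under Oxf. With it as a covariate 0 members and 0 of all genes passed, and the values were -0.83 ± 0.62, -1.76 ± 0.69 and -1.51 ± 0.48. The part of either quantity in the result was not tested. Among the 28 fits that each left out 1 library, Snord17 passed in 23, Snord15a in 23 and Snord104 in 10. No member passed without CKD-vehicle replicate 2 or 3, CKD-Oxf replicate 3 or sham-Oxf replicate 4, and 1 passed without CKD-vehicle replicate 4 or sham-Oxf replicate 5. The share of all genes that passed is given here only for the fit without sham-Oxf replicate 1 (3.5%). Whether the loss of calls was particular to the members was therefore not tested.

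**Figure D2:**
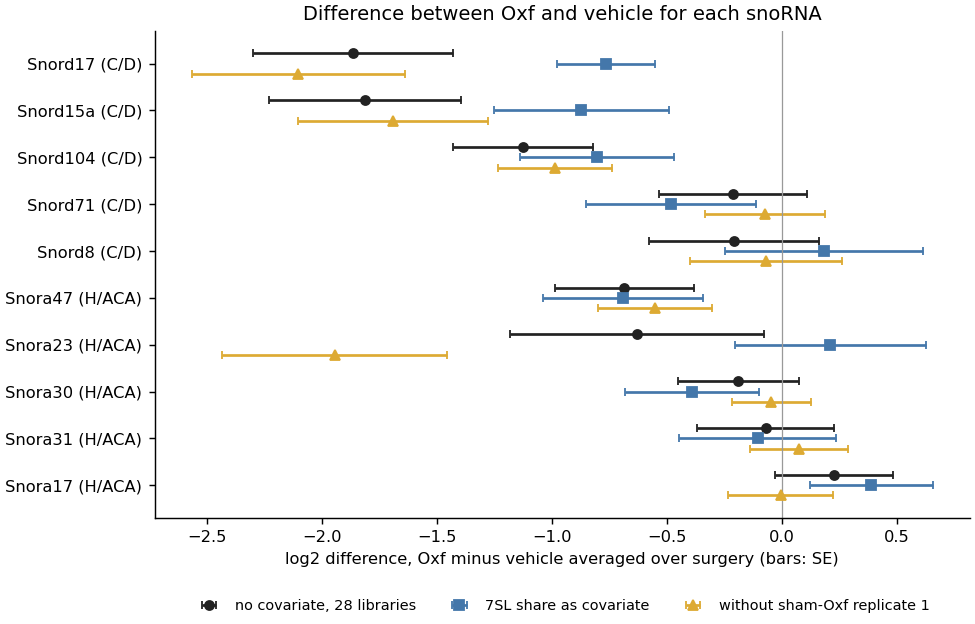
Difference in log2 level between Oxf and vehicle, averaged over surgery, for each member with its SE (bars). Circles are the fit of all 28 libraries, squares the fit with the 7SL share as covariate, and triangles the fit without sham-Oxf replicate 1. Snord17 moves from -1.87 to -0.77 with the covariate, and Snora23 from -0.63 to -1.94 without that library.

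In each surgery arm taken alone, 0 of 10 members passed. In sham-Oxf against sham-vehicle, where 0.0% of all genes passed, Snord17 had the smallest p, at -2.60 ± 0.66 (SE; edgeR adjusted p 0.160), with Snord104 at -1.68 ± 0.45 and Snord15a at -2.30 ± 0.64 (edgeR adjusted p 0.168 for both). These 3 of 10 were below an unadjusted p of 0.05, as were 12.6% of all genes. DESeq2 called these 3, Snord17 with an adjusted p of 0.00304, and limma voom called 0. The 0.0% of all genes is the edgeR share, and the shares called by DESeq2 and limma voom are not given here. Snora47 had the smallest p among the H/ACA members, at -0.74 ± 0.43 (edgeR adjusted p 0.479), and was at -0.47 without sham-Oxf replicate 1 and -1.16 without replicate 5 of that group. Snora23 was at -0.25 ± 0.78 there, and at -2.87 ± 0.79 without sham-Oxf replicate 1 (edgeR adjusted p 0.930 and 0.316). In CKD-Oxf against CKD-vehicle, the comparison in the series title, all 10 differences were negative and 0 passed, where 0.033% of all genes passed, 0.0247% higher and 0.00824% lower. The differences ran from -1.33 to -0.05 with a median of -0.59, beside 0.03 over all genes. The member threshold, which favours rows lower with Oxf, applies to these signs too, and its part was not tested. Snord15a was at -1.33 ± 0.55 (edgeR adjusted p 0.318), the 1 member below an unadjusted p of 0.05 (13.1% of all genes), and it was called by limma voom (adjusted p 0.0336) and without CKD-Oxf replicate 4 (-1.88, edgeR adjusted p 0.0480). Snora47 was at -0.63 ± 0.42 (edgeR adjusted p 0.524), with 7 of 7 CKD-Oxf libraries below the CKD-vehicle median. The arms share no library.

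Nephrectomy gave no called member. In CKD-vehicle against sham-vehicle 0 of 10 passed with edgeR, DESeq2 or limma voom, where 0.00824% of all genes passed with edgeR, and 0 of 10 were below an unadjusted p of 0.05 (4.46% of all genes). The smallest p in each class belonged to Snord15a, at 0.68 ± 0.49 (edgeR adjusted p 0.954), and Snora30, at 0.20 ± 0.34 (0.956). Snord15a was at 0.39 without CKD-vehicle replicate 2, and Snora30 at 0.0096 without CKD-vehicle replicate 4 and at 0.087 without sham-vehicle replicate 5. For Snord17 the groups spanned almost the same range, with 6 of 6 CKD-vehicle libraries inside the sham-vehicle range and 3 on each side of its median. In CKD-Oxf against sham-Oxf 0 of 10 passed (0.0% of all genes) and 3 were below an unadjusted p of 0.05 (8.23% of all genes). Snord17 was at 1.83 ± 0.66 (edgeR adjusted p 0.407) with 7 of 7 CKD-Oxf libraries above the sham-Oxf median, and at 1.17 without CKD-Oxf replicate 4. Snora17 was at -0.69 ± 0.38 (0.692), or -0.23 ± 0.35 without sham-Oxf replicate 1. Snora23 turned there from -0.59 ± 0.83 to 2.03 ± 0.80 without that library (edgeR adjusted p 0.926 and 0.651). Averaged over gavage, Snord15a was at 1.16 ± 0.41 (edgeR adjusted p 0.331) and Snora17 at -0.42 ± 0.26 (0.566), or -0.19 ± 0.23 without sham-Oxf replicate 1. There 0 of 10 passed (0.0% of all genes) and 3 were below an unadjusted p of 0.05 (10.6%). The interaction of surgery and gavage also gave 0 of 10 (0.0% of all genes), with 0 below an unadjusted p of 0.05 (3.55%). Snord104 was at 1.12 ± 0.60 and Snora17 at -0.55 ± 0.51 (edgeR adjusted p 1 for both), and without sham-Oxf replicate 1 Snora17 was at -0.09 ± 0.46.

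The level of each member was then set against the 7SL share within groups, as the change in log2 level for each doubling of the share. Here 3 of 10 members passed, all positive, where 37.9% of all 24273 genes passed, 16.8% with a positive and 21.1% with a negative slope. The members' share of calls is near that of all genes. The 3 were Snora23 at 1.08 ± 0.19 (SE; edgeR adjusted p 8.67e-05), Snord17 at 1.00 ± 0.09 (1.31e-08) and Snord15a at 0.71 ± 0.16 (0.00114), and each passed in all 28 fits that left out 1 library. The slopes of the 7SL rows themselves on this scale were 1.22 ± 0.06 for Rn7s1 and Rn7s2 and 1.12 ± 0.06 for Rn7s6, above that of Snord17, a difference that was not tested. The fit gives 1 slope for all groups, and in sham-Oxf replicates 2 to 5 Snord17 was lower at higher shares (2.30, 1.58, 1.41 and 1.30 CPM). With voom, and without sham-Oxf replicate 1, Snord104 and Snord8 passed too. In the fit without that library Snord104 was at 0.35 ± 0.11 (edgeR adjusted p 0.00885) and Snord8 at 0.40 ± 0.16 (0.0384), beside 0.25 ± 0.15 and 0.28 ± 0.19 with it. Snord104 was at 0.16 without CKD-Oxf replicate 4, and Snord8 at 0.17 without that library and at 0.12 without CKD-vehicle replicate 5.

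The remaining 5 slopes did not pass. Snora17 was at 0.18 ± 0.11, Snora47 at -0.01 ± 0.15, Snora31 at -0.03 ± 0.15, Snora30 at -0.18 ± 0.13 and Snord71 at -0.22 ± 0.16 (edgeR adjusted p 0.205 to 0.975). Without sham-Oxf replicate 1 Snora17 was at 0.095, Snora30 at -0.080 and Snord71 at -0.12, and without CKD-vehicle replicate 5 Snord71 was at -0.36. The slopes of Snora47 and Snora31 were smaller than their SE and ran from -0.12 to 0.084 and from -0.11 to 0.079 when single libraries were left out. The sign for Snora47 and Snora31 turned under limma voom and without sham-Oxf replicate 1, and that of Snora47 also with the 7SL rows taken out, with no group term, and without sham-vehicle replicate 5 or 10, sham-Oxf replicate 2 or CKD-Oxf replicate 6. Both classes therefore held members with and without a called slope, 2 of 5 C/D and 1 of 5 H/ACA.

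**Figure D3:**
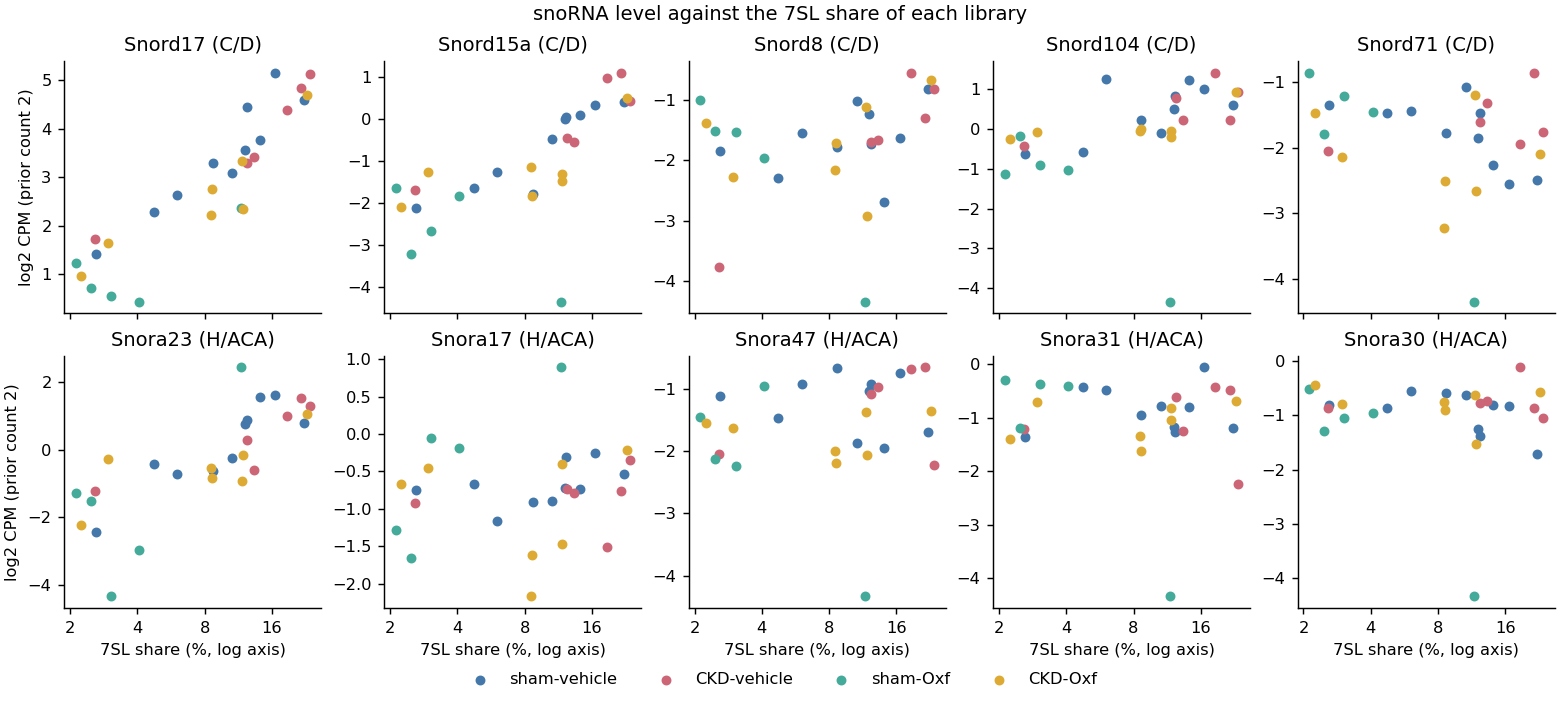
Level of each member as log2 CPM (prior count 2) against the 7SL share of the library on a log axis, with points coloured by group. Snord17, Snord15a and Snora23 are higher in the libraries with the highest shares than in those with the lowest (2.12% to 23.6%), and the isolated low points at a share of 11.6% are the 7 members with 0 counts in sham-Oxf replicate 1.

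Within single groups of at least 6 libraries, 30 relations of log2 CPM with the log2 7SL share were computed. Snord17 gave r = 0.932 in sham-vehicle (permutation p 0.0001, adjusted over the 30 relations 0.0015; Spearman rho 0.964, permutation p 5e-05, adjusted 0.00075). It gave r = 0.952 in CKD-vehicle (exact permutation p 0.00139, adjusted 0.0104; rho 1.0, exact p 0.00278, adjusted 0.0208) and r = 0.913 in CKD-Oxf (exact permutation p 0.00456, adjusted 0.0274; rho 0.893, exact p 0.0123, adjusted 0.0615). Without the 2 libraries farthest from the median share, r was 0.840, 0.998 and 0.897. Snora23 gave r = 0.892, 0.871 and 0.730 in the same groups (permutation p 0.00064, exact 0.00694 and exact 0.0550; adjusted 0.0064, 0.0347 and 0.150), with rho of 0.891, 0.886 and 0.643 (permutation p 0.00105, exact 0.0333 and exact 0.139; adjusted 0.0105, 0.143 and 0.321), and r of 0.785, 0.868 and 0.894 without those 2 libraries. Snord15a gave r = 0.911, 0.892 and 0.680 (permutation p 0.0001, exact 0.0139 and exact 0.0786; adjusted 0.0015, 0.0521 and 0.196), with rho of 0.964, 0.771 and 0.464 (permutation p 4e-05, exact 0.103 and exact 0.302; adjusted 0.00075, 0.257 and 0.477), and r of 0.852, 0.973 and 0.902 without them. The smallest permutation p that 100000 draws can give is 1e-05.

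Snord104 ran differently. Its r was 0.644, 0.728 and 0.656 (permutation p 0.0446, exact 0.106 and exact 0.0923; adjusted 0.134, 0.226 and 0.213), with rho of 0.564, 0.600 and 0.536 (permutation p 0.0961, exact 0.242 and exact 0.236; adjusted 0.257, 0.477 and 0.477). Without the 2 farthest libraries r fell to -0.01 and 0.07 in the vehicle groups and was 0.857 in CKD-Oxf, so in the vehicle groups the relation rests on those libraries. Snord71 was the 1 member with a negative relation that passed by rank, in sham-vehicle, with rho = -0.81 (permutation p 0.00712, adjusted 0.0427) and r = -0.69 (permutation p 0.0273, adjusted 0.0910; -0.73 without the 2 farthest libraries). In CKD-vehicle and CKD-Oxf Snord71 gave r of 0.499 and -0.22 (exact permutation p 0.301 and 0.636; adjusted 0.532 and 0.768).

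The 3 members with a called slope were also the 3 longest, at 148, 184 and 238 bases. The other 7, of 70 to 138 bases, had a median slope of -0.01. A length of 140 bases separates them and was chosen after these values were seen. Over the 10 members the Spearman correlation of slope was 0.62 with annotated length and 0.733 with mean CPM, so length and abundance are not separated here. The table also held 59 other annotated snoRNA rows past the same count threshold, nearly all with provisional Gm names. Among those over 140 bases, 10 of 13 had a called positive slope and 2 a called negative one (median 0.759), and among the 46 shorter ones 7 were positive and 9 negative (median -0.12). There the Spearman correlation of slope was 0.396 with length and 0.524 with mean CPM. These are correlations across genes that share libraries, and they are given with no test. Whether the 59 rows are alike in sequence was not examined.

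**Figure D4:**
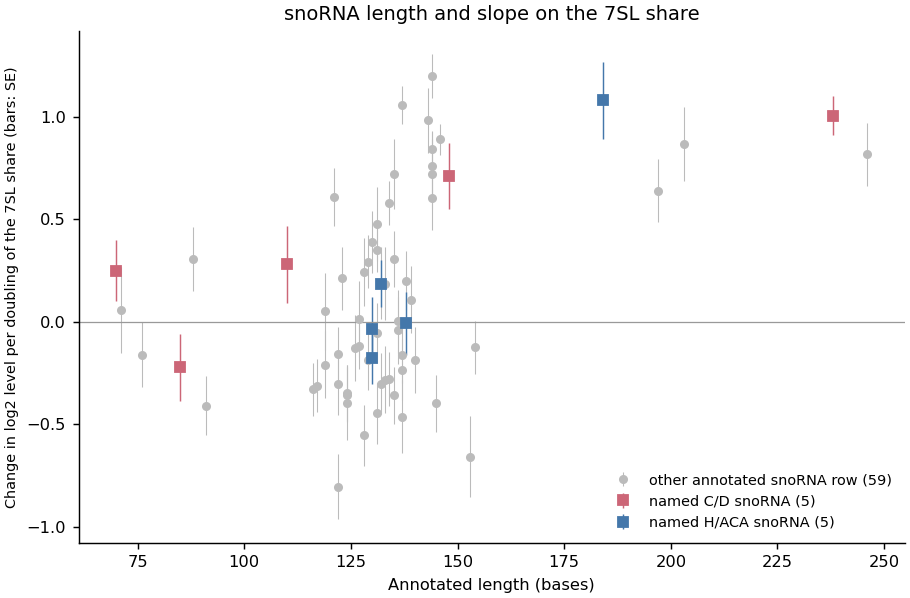
Slope on the 7SL share against annotated length in bases for the 10 members (coloured squares by class) and the 59 other annotated snoRNA rows (grey points), with the SE as bars. The 3 members over 140 bases have slopes of 0.71 to 1.08, and rows of 120 to 140 bases spread on both sides of 0.

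Host genes give the level of the transcript whose intron holds each snoRNA. Of the 8 hosts tested, 0 passed with Oxf, and their log2 differences ran from -0.53 to 0.22. Snx5 (13.7 to 33.9 CPM) had a slope on the 7SL share of 0.07 ± 0.05 (edgeR adjusted p 0.233) where its intronic Snord17 had 1.00 ± 0.09. Ipo7 had 0.20 ± 0.05 (0.00209) where Snora23 had 1.08 ± 0.19, and Rps3 had 0.37 ± 0.07 (0.000132) where Snord15a had 0.71 ± 0.16. The order was turned for Tpt1, at 0.34 ± 0.06 (0.000207), whose intronic Snora31 had -0.03 ± 0.15. Srcap had a negative slope of -0.28 ± 0.05 (0.000159) beside -0.18 ± 0.13 for Snora30. Chd8 also had a negative slope (-0.11 ± 0.04, 0.0320) and Ap1g1 a positive one (0.07 ± 0.03, 0.0263), while Zbed3 did not pass (-0.01 ± 0.05). With Oxf, Snx5 had a log2 difference of -0.21 ± 0.10 and Rps3 one of -0.53 ± 0.19 (edgeR adjusted p 0.187 and 0.104), smaller in size than those of Snord17 and Snord15a. The difference between a snoRNA and its host was not tested.

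**Figure D5:**
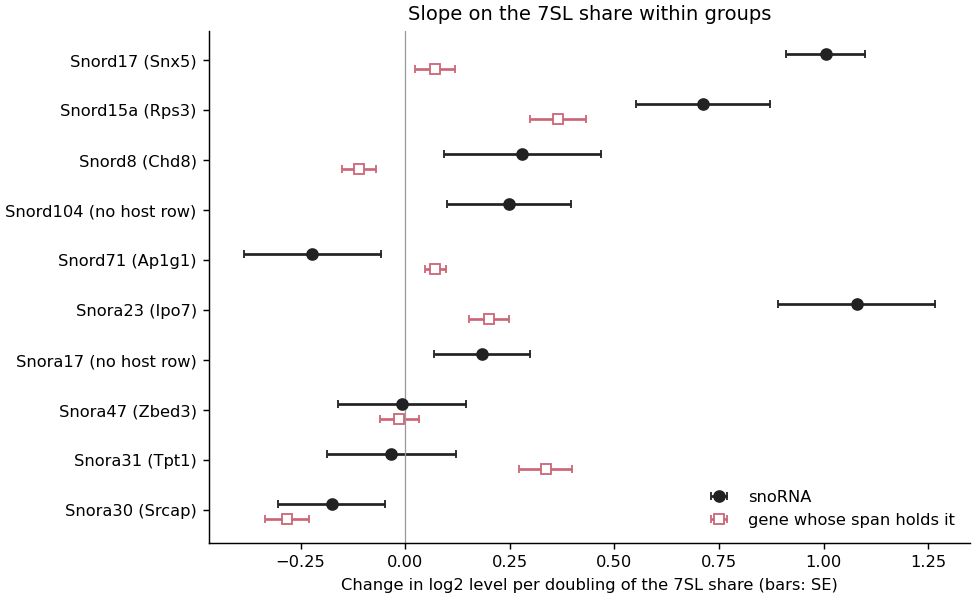
Change in log2 level per doubling of the 7SL share for each member (filled circles) and for the gene whose span holds it (open squares), with the SE as bars. Snord17 at 1.00 and Snx5 at 0.07 lie furthest apart, and Snora31 lies below Tpt1.

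The proteins that bind snoRNAs were tested from lists. Of the 4 C/D core proteins (Fbl, Nop56, Nop58, Snu13) 0 passed with Oxf and 0 on the 7SL share, with medians of -0.11 and 0.07. Fbl, the methyltransferase fibrillarin, had a log2 difference with Oxf of 0.07 ± 0.11, and Snu13, which binds the C/D fold, had -0.57 ± 0.16 (edgeR adjusted p 0.0515). Of the 4 H/ACA core proteins (Dkc1, Nop10, Nhp2, Gar1) 1 was lower with Oxf, Nop10, at -1.09 ± 0.29 (edgeR adjusted p 0.0444), and 0 passed on the 7SL share. Dkc1, the pseudouridine synthase dyskerin, had -0.03 ± 0.11 with Oxf. Of 11 snoRNP assembly factors 0 passed with Oxf and 2 had a positive slope, Znhit3 (0.47 ± 0.09) and Pih1d1 (0.20 ± 0.06). A positive slope was called for 16.8% of all genes. Of 16 genes of RNA polymerase I and pre-ribosomal RNA processing 0 passed with Oxf, with a median of 0.03, and on the 7SL share 5 were positive and 1, Polr1b, was negative, a share of calls near the 37.9% of all genes.

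Some other structured RNAs were also lower with Oxf. Over all genes 1.54% were called lower with Oxf, and 16.8% had a called positive and 21.1% a called negative slope. Of the list of RNA polymerase III and similar RNAs 10 genes were tested, all 10 were negative with Oxf (median -1.32), and 4 passed: Rn7sk (-1.36 ± 0.27), Vaultrc5 (-1.46 ± 0.39), Rnu12 (-2.01 ± 0.56) and Rny1 (-1.68 ± 0.40). The 10 include the 3 7SL rows, of which Rn7s1 and Rn7s2 differed by at most 115 counts in any library, so they are not 10 separate measurements. On the 7SL share 7 of the 10 passed, all positive, and this count includes the 3 7SL rows that make up the share. Rpph1, the RNA of ribonuclease P, had a slope of 0.87 ± 0.10. Of 5 Cajal body RNAs tested, which carry the same boxes and guide modification of spliceosomal RNA, 1 was lower with Oxf, Scarna6 (-2.05 ± 0.43, edgeR adjusted p 0.0172), and 3 had positive slopes. Of 12 non-coding snoRNA host genes tested 1 was lower with Oxf, Snhg18 (-0.64 ± 0.17), and on the 7SL share Snhg14 was positive and Snhg11 and Snhg17 were negative. Gas5, a classic non-coding host, had -0.05 ± 0.11 with Oxf and a slope of 0.07 ± 0.05.

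Many well-known snoRNAs could not be tested, because no row carried the listed name or because the counts were too few. Of 12 named genes of the class that acts in cleavage of pre-ribosomal RNA 3 were in the table and 0 were tested. None of the 10 Gas5 or 8 Snhg1 snoRNA names on the lists matched a row used here. Of 4 snoRNAs of the ribosomal protein gene Rpl13a 3 were in the table and 1 was tested, Snord32a, at -0.60 ± 0.45 with Oxf (edgeR adjusted p 0.447). Of the imprinted snoRNAs known from brain 1 row was in the table, with at most 3 counts in any library. Among the 53 Snora and Snord rows below the threshold 8 were tested, and 1 was lower with Oxf, where 1.54% of all genes were. It was Snora21 (-1.75 ± 0.46, edgeR adjusted p 0.0395), which is named after its values were seen. Of the 8 differences 5 were negative and 3 positive, the highest being Snord49a at 0.72 ± 0.46 (edgeR adjusted p 0.362). On the 7SL share 3 of the 8 had a called positive slope and 1 a called negative one, where 16.8% and 21.1% of all genes did.

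Genes outside the 10 whose pattern was most like the class means were chosen by Spearman correlation of log2 CPM over the 28 libraries with the mean log2 CPM of the class. For the C/D class these were the snoRNA gene Gm25776 (rho 0.945), the RNA gene Gm23973 (0.929), Scarna6 (0.917), RP23-361O12.5 (0.909) and the snoRNA gene Gm24130 (0.908). For the H/ACA class they were Bc1 (0.877), a small RNA known from neurons, the small nuclear RNA gene Gm25541 (0.857), the RNA gene Gm22058 (0.845), RP23-361O12.5 (0.827) and the snoRNA gene Gm24949 (0.814). These values pool the groups and are a description.

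Cell type markers were set against the same quantities. With Oxf 2 of 5 liver markers were higher (summed level 0.415 to 90.2 CPM over all libraries, 0.506 to 21.8 with vehicle). In the same test 1 of 7 ventricular cardiomyocyte markers was lower, where 1.26% of all genes were higher and 1.54% lower. On the 7SL share 5 of 5 erythroid, 4 of 5 liver, 3 of 4 endothelial and 4 of 7 ventricular cardiomyocyte markers were positive. In that test 4 of 4 adipocyte, 3 of 3 neuron and 1 of 4 macrophage markers were negative. Calls were common there, since 16.8% of all genes had a positive and 21.1% a negative slope. The summed level ran from 5.76 to 127 CPM for the erythroid, 0.0474 to 351 for the adipocyte and 0.0474 to 21.7 for the neuron list. Both values of 0.0474 were in sham-Oxf. The lowest value in the other groups was 2.50 CPM for the adipocyte and 0.340 CPM for the neuron list. None of 4 fibroblast or 3 atrial markers passed in either test. The part of these in the snoRNA results was not tested.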

How the data were processed

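Total RNA from ventricular myocardium of 28 mice was sequenced. The deposited values are raw read counts per gene. Per the submitters' processing notes, FastQC 0.11.7, MultiQC 1.9, STAR 2.6.1d and featureCounts 1.6.3 were used with mm10, but their settings, including strand and reads that map to several places, are not given in the sources used here.

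Counts were tested with the quasi-likelihood method of edgeR 4.0.16 in R 4.3.3 with TMM scaling, a minimum count of 10 in filterByExpr and 1 fit of 4 group means over all libraries (24273 genes, all 10 members included). Adjusted p-values are Benjamini-Hochberg values over all genes tested, with a threshold of 0.05. The 7SL slope came from a fit with group and the centred log2 7SL share. CPM uses TMM library sizes, and log2 CPM a prior count of 2. Correlations within groups used exact permutation, or 100000 draws for 10 libraries (SciPy 1.17.1), all two-sided. Similar copies were found with BLAST 2.17.0 at 90% identity over 80% of the length. DESeq2 1.42.0, limma 3.58.1, other scalings, other filters, covariates and leaving out each library were the alternatives. The fits were tested on simulated data. Of the 45513 identifiers 45465 matched the annotation.

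The labels give no replicate numbers, so replicates are numbered in accession order, and p-values measure the spread between mice. The gene lists, the members and the tests were chosen with earlier results of these data known. Genes were named if called in a contrast, or of smallest p in their class where none was, and from the lists.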

Additional observations from a re-analysis of the deposited data

Results flagged for a closer look

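Within each group of 5 to 10 libraries, the gap between the highest or lowest library and its neighbour was set against the range of the group for the log2 CPM of the members and the class sums. Of 48 such comparisons 10 passed Dixon's 95% limit, where about 2.4 are given by chance (1 in 20). Sham-Oxf replicate 1 gave 5 of them, each a member at 0 counts: Snord104 (gap 0.769 of the range), Snord8 (0.714), Snord71 (0.735), Snora30 (0.795) and Snora31 (0.778). CKD-Oxf replicate 4, with a 7SL share of 23.0%, was the highest library of its group for Snord104 (0.780) and Snord15a (0.635). CKD-vehicle replicate 5, with a share of 2.58%, was lowest for Snord8 at 1 count (0.643), and CKD-vehicle replicate 4 was highest for Snora30 (0.673). CKD-Oxf replicate 5 was lowest for Snora30 (0.580).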

How the results depend on the processing

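The 3 members lower with Oxf averaged over surgery were 1 with at least 10 counts in every library, where only Snord17 could be tested, 1 with no low-count filter, 0 with the 7SL share and 0 with the clock score as covariate, and 0 to 4 over the 28 fits that each left out 1 library. Each kept its sign in all of these. In CKD-Oxf against CKD-vehicle the count of 0 became 1 with limma voom and was 0 to 1 when leaving out libraries. In sham-Oxf against sham-vehicle it became 3 with DESeq2. The 3 members with a 7SL slope became 5 with limma voom, 1 with at least 10 counts in every library, where only Snord17 could be tested, and 3 to 5 when leaving out libraries. For the DESeq2, limma voom and filter settings the share of all genes called is not given here. Among fits that left out a library, it is given only for Oxf averaged over surgery without sham-Oxf replicate 1. The slope of Snora31 turned from -0.03 to 0.071 with limma voom and to 0.079 without sham-Oxf replicate 1 (range -0.11 to 0.079). That of Snora47 turned from -0.01 to 0.14 with limma voom, 0.025 with the 7SL rows taken out and 0.13 with no group term, and ran from -0.12 to 0.084 when leaving out libraries. The cause of these turns was not tested. Over all genes the slope calls were 4071 positive and 5120 negative, 3322 and 6354 with upper quartile scaling, and 4904 and 4025 with the 7SL rows taken out. The log2 differences of the class sums, -1.56 for C/D and -0.36 for H/ACA, moved by less than the SD within groups. The sum without the 2 leading members gave no log2 difference, since it was 0 in sham-Oxf replicate 1. Low counts limit the precision: 7 members had a median of 25.5 counts or fewer. No paired analysis was made, since each library came from a different mouse and the labels give no pairing. The mouse numbers run in separate blocks by group, so group and mouse order cannot be told apart.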

Other observations

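Of the 59 other annotated snoRNA rows, 11 were lower and 0 higher with Oxf averaged over surgery at an edgeR adjusted p under 0.05, where 1.54% of all genes were lower and 1.26% higher, with a median log2 difference of -0.30 beside 0.00312 over all genes. Their log2 differences ran from -2.44 to 0.92. These rows passed the same threshold as the members, which vehicle libraries alone can meet and Oxf libraries alone cannot. The threshold therefore favours rows lower with Oxf, and its part in these counts was not tested. On the 7SL share 17 were positive and 11 negative, where 16.8% and 21.1% of all genes were. Among the rows over 140 bases, chosen after their values were seen, Gm24336 was the most abundant, at 8.11 CPM, with a slope of 0.89 ± 0.08 (SE) and a log2 difference of -1.59 ± 0.36 with Oxf (edgeR adjusted p 0.0228). Gm27295 went the other way, with a slope of -0.66 ± 0.20 and a log2 difference of 0.16 ± 0.43 (edgeR adjusted p 0.878).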
